A study of Mus musculus with 6 samples.

Results

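The genes analysed here are 7 that tumor cells can use to restrain immune cells, listed by name and not by a threshold on their values: Cd274 (PD-L1), Lgals9 (galectin-9), Pvr (CD155), Cd47, Cd276 (B7-H3), Nt5e (CD73), and Tnfrsf14 (HVEM). They are 7 of the 25215 genes with deposited values. The study asked how genetic subclones of a mouse melanoma differ under immune checkpoint blockade, and profiled single tumor cells with Smart-seq, which reads full-length transcripts, on the ICELL8 nanowell system. C57BL/6 mice received 50000 cells under the skin of the flanks, and tumors were collected on day 15. The 3 conditions had tumors of 2 mice each: B16, the B16-F10 melanoma line without treatment; B16PD1, the same line in mice dosed with 200 μg of anti-PD1 (the first dose on day 5, then day 8, then day 11); and R499, untreated tumors of the R499 line, which came from a B16 tumor that relapsed after radiation and anti-CTLA4. The labels name no transgene or deletion in any group. R499 is 1 line, so a difference between R499 and B16 is one between these 2 lines. Only cells without the immune surface antigen CD45 were loaded.

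Of the 602 deposited cells, 507 were retained (91 in tumor B16007, 86 in B16008, 86 in B16PD1000, 88 in B16PD1002, 81 in R499015, and 75 in R499016), with more than 1000 genes detected and less than 10% of the signal from mitochondrial genes. The unit is TPM, a transcript abundance that is corrected for length and sums to 1 fixed total within a cell, and a gene was called detected in a cell where its TPM was above 0. TPM keeps no read counts, so depth in reads is unknown, and the number of genes detected per cell stands for it: its median was 3647, 3388.5, 3807.5, 3838.5, 3141, and 3682 in the 6 tumors in the order above. Cells of 1 tumor share an animal, so conditions were compared over the 6 tumors and not over cells. The retained cells carried the melanocyte genes of their label. The pigment genes Dct, Tyrp1, and Pmel were detected in 507 of 507 cells, and Mlana in 504, Tyr in 497, Mitf in 471, and Sox10 in 330. Of 15 immune markers, Ptprc, the gene of the CD45 antigen used for the sort, was detected in 1 cell, and Cd8a, Nkg7, Itgax, and Flt3 in none, while Fcer1g was detected in 28 cells, Lyz2 in 14, Csf1r in 7, and Tyrobp in 6. In all, 50 cells (9.86%) had an immune marker, and the genes without them are given further on. Of 6 fibroblast markers, Pdgfra and Col1a1 were listed at 0, and Lum was detected in 7 cells, Dcn in 6, Col3a1 in 3, and Col1a2 in 1, so that 17 cells (3.35%) had any of them. The 4 keratinocyte markers Krt5, Krt14, Krt10, and Krt1 were all listed at 0, and 3 cells had any of 5 endothelial markers.

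As background, most of these proteins have a known partner on immune cells. PD-L1 binds PD-1, galectin-9 is a secreted and surface lectin reported to bind TIM-3, CD155 binds the inhibitory receptors TIGIT and CD96 and the activating receptor DNAM-1, and HVEM binds BTLA and CD160. CD47 binds SIRPα on macrophages and restrains phagocytosis, CD73 makes extracellular adenosine from AMP, and B7-H3 is a B7 family member whose receptor is not settled. Interferon-γ from T cells induces Cd274 in many cell types, and the interferon regulatory factors that take part in this read GAAA repeats in promoters.

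On the GRCm38 assembly, Lgals9 lies at chr11:78962974-78984946 on the minus strand, Pvr at chr7:19903578-19921160 (minus), Cd47 at chr16:49800533-49915010 (plus), Cd274 at chr19:29367455-29388095 (plus), Cd276 at chr9:58524298-58555437 (minus), Nt5e at chr9:88327197-88372092 (plus), and Tnfrsf14 at chr4:154921933-154928563 (minus). RefSeq promoters of the build GRCm38.p6 were matched by symbol for 6 of the 7 genes, and Pvr was not among them. The 250 bases before each start were searched on both strands for the interferon regulatory factor motif, 2 runs of GAAA with any 2 bases between them, and for the STAT motif TTCNNNGAA, which reads the same on both strands. The first was found before Lgals9 and Tnfrsf14 and in no promoter of Cd274, Cd276, Nt5e, or Cd47 (with 2 starts), while TTCNNNGAA was in none of the 6. Over all 32851 promoters, 2.98% held the first motif and 7.02% the second, and the motifs did not overlap in these genes. The sequences with a match are shown because Lgals9 was the most abundant of the 7 genes and Tnfrsf14 nearly undetected: that of Lgals9 is the stretch outside exons, chr11:78984947-78985174, and that of Tnfrsf14 is the match with 10 bases on each side, chr4:154928122-154928151, which lies in an annotated exon. Both are 5′ to 3′ on the minus strand, with the motif, here in its opposite orientation, in capitals.
Lgals9: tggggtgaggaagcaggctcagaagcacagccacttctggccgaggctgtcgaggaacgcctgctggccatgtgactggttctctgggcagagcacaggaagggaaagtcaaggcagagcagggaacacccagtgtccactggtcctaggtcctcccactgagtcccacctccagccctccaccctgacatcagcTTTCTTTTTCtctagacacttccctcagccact
Tnfrsf14: ctattttttcTTTCATTTTCacttttcctt
A match is a description of the letters and was not tested as a binding site.

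The 7 genes comprised 3 that were common, 2 that a minority of cells carried, and 2 that were at or near 0. Lgals9 was detected in 398 of 507 cells (78.5%, 95% Wilson interval 74.7% to 81.9%), Pvr in 298 (58.8%, 54.4% to 63.0%), and Cd47 in 261 (51.5%, 47.1% to 55.8%). Cd274 was detected in 85 cells (16.8%, 13.8% to 20.3%) and Cd276 in 62 (12.2%, 9.66% to 15.4%). Tnfrsf14 was detected in 1 cell and Nt5e in 0 of 507 cells, which allows a share of up to 0.592% when taken as 3 counts of the total (the upper Wilson bound is 0.752%). These intervals cover counting error only, and cells with fewer genes detected are described further on. Mean TPM over the 6 tumors followed nearly the same order, at 150 ± 22.1 for Lgals9, 44.7 ± 11.2 for Pvr, 30.6 ± 9.32 for Cd47, 5.38 ± 3.0 for Cd276, and 4.79 ± 2.58 for Cd274 (SD, n = 6 tumors). Cd276 stood above Cd274 in mean TPM and below it in mean log2(TPM + 1). Its highest cell, in B16008, held 628 TPM against a median of 20.2 TPM over the cells that detected it.

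**Figure D1:**
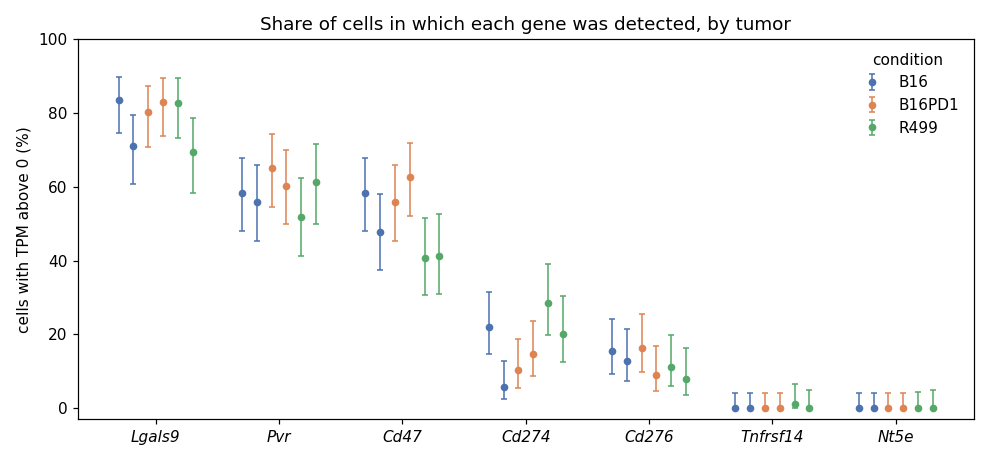
Share of retained cells with TPM above 0 (vertical axis, percent) for each of the 7 genes (horizontal axis) in the 6 tumors, colored by condition and ordered by tumor number within it; bars are 95% Wilson intervals. Lgals9 spans 69.3% to 83.5% of cells, Cd274 5.81% to 28.4%, and Nt5e is at 0 in every tumor.

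Which neighbors in the order of levels differ was asked over the 6 tumors, with each tumor's mean of log2(TPM + 1) as its value and an exact sign-flip permutation test (two-sided, 6 neighbor pairs, Benjamini-Hochberg adjustment). With 6 tumors the smallest p is 0.03125, which adjusts here to 0.0625, so no pair could pass 0.05 in this family unless more pairs reached the smallest p. Over the 4 pairs among the 5 genes tested, a family chosen after the data were seen, it also adjusts to 0.0625. Lgals9 was above Pvr by 2.27 ± 0.60 (SD, n = 6 tumors) and Cd47 above Cd274 by 1.90 ± 0.81, each in 6 of 6 tumors at that smallest p. Cd276 was above Tnfrsf14 by 0.52 ± 0.15, which is no test, since Tnfrsf14 was at 0 in 5 of 6 tumors. Pvr was above Cd47 by 0.59 ± 0.38 in 5 of 6 tumors (exact p = 0.0625, adjusted 0.0938). Cd274 and Cd276 were not separated, with a difference of 0.20 ± 0.44 and Cd274 higher in 4 of 6 tumors (exact p = 0.3125, adjusted 0.375). The sign of this last difference turned (-0.12) when the log was taken of the mean TPM.

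Lgals9, the lectin, was detected in 83.5% and 70.9% of cells in the B16 tumors B16007 and B16008, in 80.2% and 83.0% in B16PD1000 and B16PD1002, and in 82.7% and 69.3% in R499015 and R499016. Its mean TPM was 146, 113, 159, 161, 178, and 141 in the same order. In share of cells the range within B16 and within R499 was nearly as wide as the range over all tumors, and the conditions overlapped. In mean TPM both B16 tumors were below both B16PD1 tumors, while R499 overlapped each of the others. In mean log2(TPM + 1), B16 and B16PD1 overlapped for Lgals9, and did not overlap for 33.3% of all genes tested, in either direction. Where it was detected, the median was 138 TPM, the highest of the 7 genes.

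Pvr, the ligand of TIGIT, was detected in 58.2%, 55.8%, 65.1%, 60.2%, 51.9%, and 61.3% of cells in the tumors in that order, a narrow range in which the R499 tumors were the lowest and the second highest. Its mean TPM was 59.7 and 53.7 in B16, 43.6 and 46.6 in B16PD1 tumors, and 32.7 and 31.8 in R499, and so was lowest in R499. The share of all genes placed in this way in mean TPM is not given here. With log2 of the mean TPM the difference of R499 minus B16 was -0.79 (limma adjusted p = 0.567). Over the 16 alternatives this level difference ran from -0.79 to -0.017. On the log2(TPM + 1) scale the means were 3.39, 3.17, 3.42, 3.405, 2.76, and 3.18, and R499016 and B16008 were within 0.01 of each other. The highest cell held 780 TPM in B16007 and 230 TPM in R499016.

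Cd47, the signal against phagocytosis, was detected in 58.2% and 47.7% of cells in B16, 55.8% and 62.5% in B16PD1 tumors, and 40.7% and 41.3% in R499. Both R499 tumors were below all 4 others. Its mean TPM was 33.7, 34.1, 34.1, 42.9, 18.6, and 20.3, and its mean log2(TPM + 1) was 2.98, 2.58, 2.78, 3.43, 1.92, and 2.07, with R499 lowest on each scale. In mean log2(TPM + 1), 30.1% of all genes tested were lower in both R499 tumors than in both B16 tumors. Against both B16PD1 tumors it was 31.3%. Such shares of all genes are not given here for share of cells or mean TPM.

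Cd274, the ligand of PD-1, was detected in 21.98% of cells in B16007 and 5.81% in B16008, in 10.5% and 14.8% in B16PD1 tumors, and in 28.4% and 20% in R499015 and R499016. The 2 untreated B16 tumors were on either side of both B16PD1 tumors, and B16007 lay between the R499 tumors. Cd276 was detected in 15.4% and 12.8% in B16, 16.3% and 9.09% in B16PD1 tumors, and 11.1% and 8% in R499, from 6 to 14 cells per tumor. Its R499 tumors were below both B16 tumors and overlapped those of B16PD1.

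**Figure D2:**
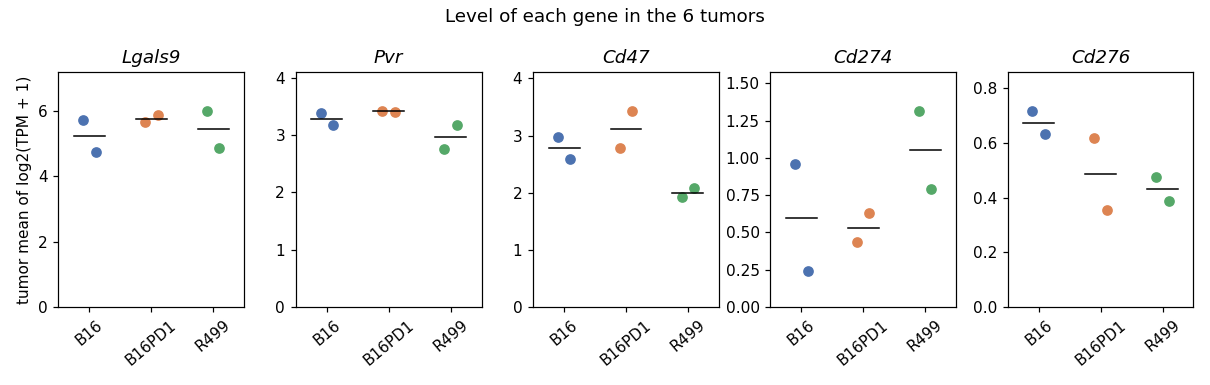
Tumor mean of log2(TPM + 1) (vertical axes, each with its own scale) for the 5 genes tested, by condition; each point is 1 tumor and each line the mean of the 2 tumors. The R499 tumors sit at 1.92 and 2.07 for Cd47, below the 4 other tumors, while for Lgals9 the conditions overlap. On this scale 30.1% and 31.3% of all genes tested were lower in both R499 tumors than in both B16 and both B16PD1 tumors.

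Nt5e and Tnfrsf14 were too rare to test. Nt5e had no cell above 0 in any tumor, also among the 95 cells that were not retained, and the limit that a count of 0 allows, again as 3 counts of the total, was 3.30% in B16007, 3.49% in B16008 and B16PD1000, 3.41% in B16PD1002, 3.70% in R499015, and 4% in R499016. Tnfrsf14 had 1 retained cell, in R499015, at 32.9 TPM, and 1 cell among those not retained. These limits cover the sampling of cells and not transcripts missed within a cell.

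The first comparison asked whether the genes differ between tumors with and without anti-PD1. It was fitted with limma on all 6 tumors over 11264 genes, 5 of the 7 among them, with two-sided Benjamini-Hochberg adjusted p-values and a threshold of 0.05. In B16PD1 minus B16, 0 of the 5 genes passed in level, against 0% of all genes tested. At an unadjusted p under 0.05 the count was 0 of 5, against 4.69% of all genes. Lgals9 differed by 0.52 on the log2(TPM + 1) scale (standard error 0.41, 95% interval -0.35 to 1.39, adjusted p = 0.989) and Cd47 by 0.32 (0.33, -0.38 to 1.03, adjusted p = 0.989). The Lgals9 difference was 1.01 without B16007 and 0.037 without B16008. Cd276 differed by -0.19 (0.15, -0.50 to 0.13), and by -0.89 with log2 of the mean TPM. The highest Cd276 cells held 628 TPM in B16008 and 474 TPM in B16PD1000. Pvr differed by 0.13 (0.32, -0.56 to 0.81). Cd274 differed by -0.07 (0.24, -0.57 to 0.43), and from -0.43 to 0.29 with 1 tumor left out. Cd276 and Pvr were the genes whose groups did not overlap, as was so for 33.3% of all genes. The Pvr difference changed sign under 4 alternatives, among them log2 of the mean TPM (-0.32). In share of cells 0 of 5 passed, against 0% of all genes. Lgals9 was 4.37 percentage points higher in B16PD1 (95% interval -5.39 to 14.1), Pvr 5.64 points (-5.12 to 16.4), and Cd47 6.20 points (-5.56 to 18.0), and Cd274 and Cd276 differed by -1.28 (-11.6 to 9.09) and -1.40 points (-8.43 to 5.62). With 1 tumor left out, Cd274 ran from -9.36 to 6.80 points, Cd276 from -5.00 to 2.19, and Lgals9 from -1.92 to 10.7. At an unadjusted p under 0.05 the count in share was 0 of 5, against 5.09% of all genes. The intervals span zero for each gene and also hold differences of more than 5 points.

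The second comparison asked whether the genes differ between the resistant line and its parent, both untreated. It shares the B16 tumors with the first. In R499 minus B16, 0 of the 5 genes passed in level, against 0.0621% of all genes tested (7 genes). Cd47 differed by -0.79 (standard error 0.33, 95% interval -1.49 to -0.08, unadjusted p = 0.0309, limma adjusted p = 0.418), lower in 2 of 2 R499 tumors than in either B16 tumor. An unadjusted p under 0.05 was reached by 1 of 5 genes and by 10.5% of all genes. The groups did not overlap for Cd47 and Cd276, both lower in R499, as for 30.1% of all genes in that direction. With log2 of the mean TPM the differences were -0.77 for Cd47, -0.84 for Cd276, and 0.75 for Cd274. The Cd276 mean of B16008 (9.97 TPM, against 5.74 TPM in B16007) included the cell at 628 TPM. On the main scale Cd276 differed by -0.24 (0.15, -0.56 to 0.07, adjusted p = 0.588), Pvr by -0.31 (0.32, -1.0 to 0.37, adjusted p = 0.764), and Lgals9 by 0.20 (0.41, -0.67 to 1.07, adjusted p = 0.903). With 1 tumor left out the Lgals9 difference ran from -0.36 to 0.76. Cd47 stood at -0.48 with all 602 cells and at -0.41 with a pseudocount of 10. Cd274 differed by 0.45, and by 0.092 without B16008, 0.82 without B16007, 0.19 without R499015, and 0.72 without R499016. The median over the 5 genes was -0.24 and that over all genes -0.073. In share of cells 0 of 5 passed, against 0.0444% of all genes, with Cd47 at -11.9 points (95% interval -23.7 to -0.162, adjusted p = 0.479) and Cd274 at 10.3 points (-0.0697 to 20.7, adjusted p = 0.487). The share difference of Cd47 was -6.64 points without B16007, and that of Cd274 was 18.4 points without B16007, 2.22 without B16008, and 6.10 without R499015. Here 1 of 5 genes had an unadjusted p under 0.05, against 10.3% of all genes.

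The third comparison set R499 against B16PD1 and shares samples with both others. In R499 minus B16PD1, 0 of the 5 genes passed in level, against 0.071% of all genes tested (8 genes), and 2 of 5 had an unadjusted p under 0.05, against 10.2%. Cd47 differed by -1.11 (standard error 0.33, 95% interval -1.81 to -0.40, unadjusted p = 0.00412, limma adjusted p = 0.314). Cd274 differed by 0.52 (0.24, 0.02 to 1.02, unadjusted p = 0.0420, limma adjusted p = 0.469), and by 0.26 without R499015 and 0.78 without R499016. Cd47 and Pvr were lower in both R499 tumors than in both B16PD1 tumors, as were 31.3% of all genes, and Cd274 was higher in both, as were 10.2%. Pvr differed by -0.44 (0.32, -1.13 to 0.24), Lgals9 by -0.32 (0.41, -1.19 to 0.55), and Cd276 by -0.05 (0.15, -0.37 to 0.26), with adjusted p of 0.661, 0.832, and 0.924 from limma. With 1 tumor left out, Lgals9 ran from -0.88 to 0.24 and Cd276 from -0.19 to 0.078. Pvr was at 0.031 with genes detected as a term in the fit. In share of cells 0 of 5 passed, against 0.0444% of all genes. Cd47 was at -18.1 points (5.59, -29.9 to -6.36, limma adjusted p = 0.230) and Cd274 at 11.6 points (4.93, 1.21 to 21.9, limma adjusted p = 0.340), and these 2 of the 5 had an unadjusted p under 0.05, against 13.1% of all genes. Without R499015 the Cd274 share difference was 7.38 points. With genes detected as a term in the fit, the share differences were -7.01 points for Cd47 and 24.6 points for Cd274, and in the cells above 3000 genes they were -8.67 and 19.4 points.

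**Figure D3:**
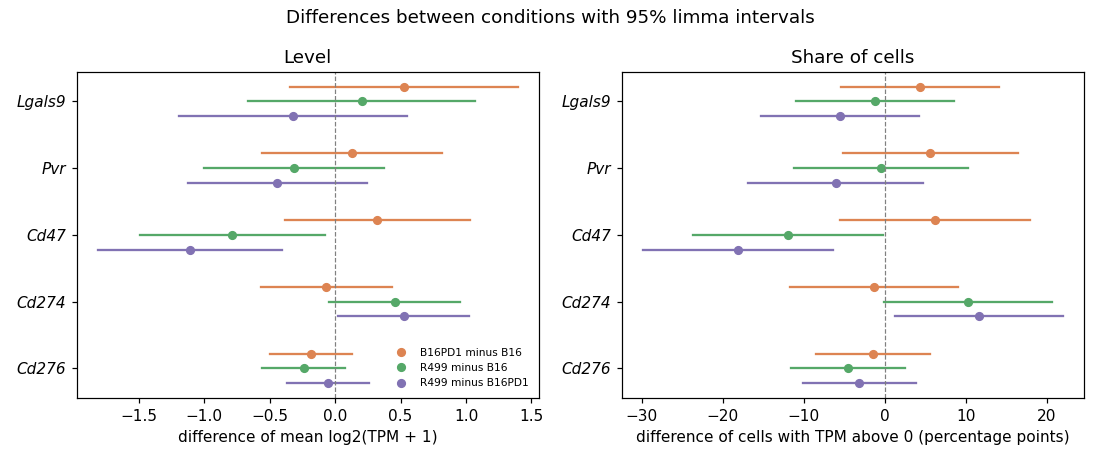
Differences between conditions for the 5 genes tested, in mean log2(TPM + 1) (left) and in percentage points of cells (right); points are limma estimates over 6 tumors and bars 95% intervals that are not adjusted for the number of genes. The Cd47 intervals of both R499 contrasts lie below zero, from -1.49 to -0.08 against B16 and from -1.81 to -0.40 against B16PD1 in level, and no adjusted p passed 0.05.

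The number of genes detected moved with these shares. Within each tumor, cells were put into 3 equal bins by genes detected, with medians of 2286, 3529, and 4931 genes over all tumors. From the lowest to the highest bin, detection went from 58.0% to 93.6% for Lgals9, from 29.0% to 81.9% for Pvr, from 24.9% to 82.5% for Cd47, from 6.51% to 24.6% for Cd274, and from 6.51% to 18.7% for Cd276. Cd47 in the R499 tumors was low in the 2 lower bins and not in the highest. It was detected in 14.8% and 8% of the lowest bin in R499015 and R499016, against 17.2% to 40% in the other tumors, and in 25.9% and 24% of the middle bin, against 53.6% to 62.1%. The median genes detected in the lowest bin were 2060 and 1971 in these tumors and 2135 to 2569 in the others. Those of the middle bin were 3141 and 3682, against 3388.5 to 3837, so that R499016 stood above both B16 tumors. In the highest bin it was 81.5% and 92%, against 72.4% to 90%. R499 had 45 of 81 and 45 of 75 retained cells above 3000 genes, and the 4 other tumors had 56 to 64 such cells each. Among these 333 cells Cd47 was detected in 57.8% and 64.4% in R499, 67.2% and 64.3% in B16, and 66.1% and 73.4% in B16PD1, so R499 and B16 overlapped by share. In mean log2(TPM + 1) of the same cells, Cd47 was at 2.61 and 3.23 in R499, below 3.37 and 3.35 in B16, while B16PD1 (3.12 and 3.96) overlapped R499. The level difference of Cd47 was then -0.44 against B16 and -0.62 against B16PD1, and -0.52 and -0.69 in a fit that also held each tumor's mean genes detected. Cd274 in the cells above 3000 genes was detected in 27.9% and 7.14% in B16, 12.9% and 17.2% in B16PD1 tumors, and 42.2% and 26.7% in R499, with level differences of 0.73 against B16 and 0.85 against B16PD1 (limma adjusted p = 0.450 and 0.542). The part of depth in these differences was not tested further.

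**Figure D4:**
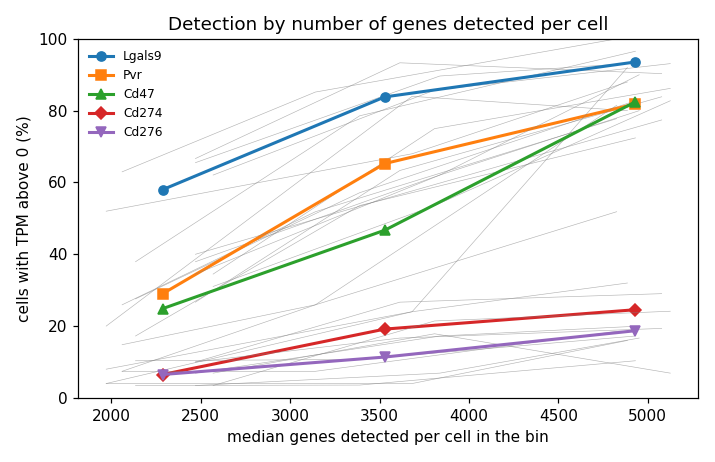
Share of cells with TPM above 0 (vertical axis, percent) against the median number of genes detected in 3 bins of cells (horizontal axis); colored lines are all 507 cells and gray lines single tumors. Every colored line climbs with genes detected, from 24.9% to 82.5% for Cd47 and from 6.51% to 24.6% for Cd274.

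Joint detection was described over cells, with no test. At least 1 of the 7 genes was detected in 465 of 507 cells (91.7%), and 2 or more in 366 (72.2%, 95% Wilson interval 68.1% to 75.9%). By tumor the latter share was 79.1% and 62.8% in B16, 77.9% and 75% in B16PD1 tumors, and 71.6% and 65.3% in R499. Both R499 tumors were below both B16PD1 tumors, and B16 overlapped each of the others. One gene was detected in 99 cells, 2 in 160, 3 in 143, 4 in 58, and 5 in 5 cells, and 42 cells had none. The most common combination was Lgals9 with Pvr and Cd47, in 99 cells (19.5%), followed by Lgals9 with Pvr in 75, Lgals9 alone in 61, and Lgals9 with Cd47 in 48. Cd274 was most often seen with all 3 of them, in 37 cells.

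Each pair was set beside the count that the product of its 2 shares gives within tumors, and within tumors and bins of genes detected. Pvr and Cd47 were detected together in 181 cells, against 154 from tumors and 179 from tumors and bins. Lgals9 and Pvr were together in 253 cells, against 234 and 250, and Cd274 and Cd47 in 52, against 42.8 and 52.1. Cd274 with Pvr, in 62 cells, stood above both 49.3 and 58.2, and so did Cd47 with Cd276, in 41, above 32.4 and 38.7. Pvr with Cd276, in 36, was below both 36.6 and 41.9, and Cd274 with Cd276, in 10, below 10.1 and 11.96. For the 3 pairs among Lgals9, Pvr, and Cd47 the observed counts lay nearer to the second product. Pearson r of log2(TPM + 1) over the 507 cells, after tumor means and a line on genes detected were removed, was between -0.073 and 0.036 for all 10 pairs, which is weak.

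**Figure D5:**
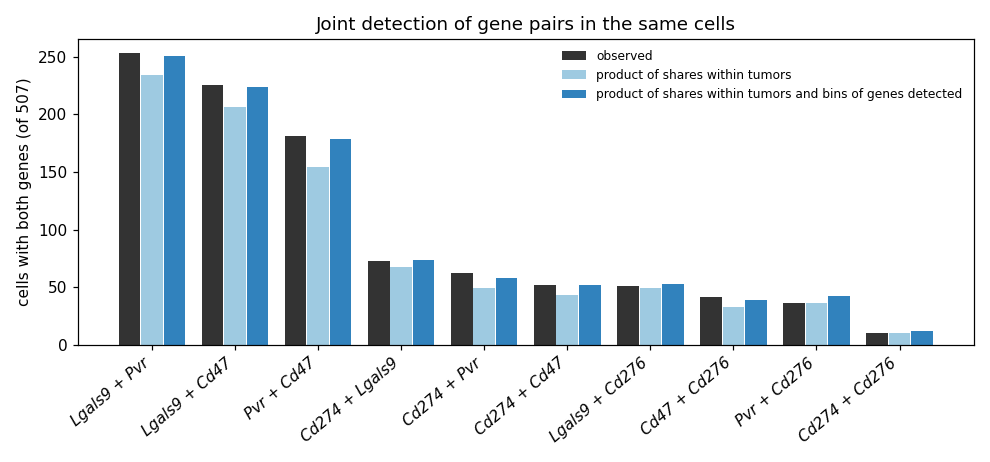
Cells in which both genes of a pair had TPM above 0 (black, of 507), beside the product of the 2 shares within tumors (light blue) and within tumors and bins of genes detected (dark blue). For Pvr with Cd47 the bars are 181, 154, and 179 cells.

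The genes were next set beside interferon-γ response genes, for which 20 genes were listed and 18 tested. Cxcl10 (197 ± 138 TPM, SD, n = 6 tumors), a chemokine, Irgm1 (112 ± 73.8), a GTPase, and Psmb10 (87.5 ± 28.0), a subunit of the immunoproteasome, were the most abundant. No gene of the list passed in any contrast in level (limma), and 0, 1, and 1 had an unadjusted p under 0.05 in the 3 contrasts in the order above, beside 4.69%, 10.5%, and 10.2% of all genes. The medians were -0.15, -0.26, and -0.055, beside 0.012, -0.073, and -0.089 over all genes tested. The mean log2(TPM + 1) per listed gene was 2.17 and 0.74 in B16, 1.03 and 1.70 in B16PD1 tumors, and 1.47 and 1.0 in R499, so the highest and the lowest tumor were both untreated B16. From the tumor highest to the one lowest in the list (B16007, B16PD1002, R499015, B16PD1000, R499016, and B16008), Cd274 was detected in 21.98%, 14.8%, 28.4%, 10.5%, 20%, and 5.81% of cells and Lgals9 in 83.5%, 83.0%, 82.7%, 80.2%, 69.3%, and 70.9%. Over all 6 tumors Cd274 did not follow that order, with R499015 the highest. Within each condition, the tumor higher in the list also had the larger share of cells with Cd274. It was 21.98% against 5.81% in B16, 14.8% against 10.5% in B16PD1, and 28.4% against 20% in R499. The same was so for Lgals9. With 2 tumors per condition this was not tested. Over the 507 cells, with tumor means and genes detected removed as above, r with the list was 0.19 for Lgals9, positive in 6 of 6 tumors (0.02 to 0.33), and 0.14 for Cd274, positive in 4 of 6 (-0.11 to 0.44). It was 0.03 for Cd47 and -0.04 for both Pvr and Cd276. In the 252 cells above their tumor's median for the list, Lgals9 was detected in 81.7%, against 75.3% of the 255 others, higher in 5 of 6 tumors. Cd274 was detected in 19.0% against 14.5%, higher in 4 of 6 tumors. Pvr (57.5% against 60%), Cd47 (52.0% against 51.0%), and Cd276 (10.7% against 13.7%) were higher above the median in 2, 3, and 2 tumors. The medians of genes detected were 3540 above it and 3547 in the others, but within tumors they differed: 3111 against 3787 in B16008, 3280 against 3943 in R499016, and 3500 against 2942 in R499015. B16008 and R499016 were the tumors in which Cd274 was lower above the median, and B16008 the one in which Lgals9 was. The part of genes detected in these shares was not tested.

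The genes most like each of the 5 by the same r, among 8138 genes detected in at least 10% of cells, included Bst2 (0.22) and B2m (0.21) for Lgals9, and were Zyx (0.24), Ndrg1 (0.21), and Tnfrsf12a (0.20) for Pvr, all positive in 6 of 6 tumors. Bst2 encodes tetherin, an interferon-induced membrane protein, B2m the light chain of MHC class I, and Zyx a focal adhesion protein. For Cd276 they were Riok1 (0.20), Abcf3 (0.18), and Smg1 (0.18), for Cd47 Hmbox1 (0.18), Dhrs7 (0.16), and Higd1a (0.16), and for Cd274 Neurl2 (0.17), Tnfaip2 (0.16), and Rps6kb2 (0.16). These are the top of many weak values in sparse data over cells that share tumors, and are given as a description.

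On the partner side, 12 receptors and ligands of immune cells were listed and 2 could be tested. Sirpa, the receptor of CD47, was detected in 285 cells (56.2%, 39.9 ± 10.3 TPM, SD, n = 6 tumors), and it was detected together with Cd47 in 181 cells (35.7%, 95% Wilson interval 31.7% to 39.96%). Havcr2 (TIM-3) was detected in 2 and 2 cells of the B16 tumors, 3 and 4 of the B16PD1 tumors, and none of R499, and 30.1% and 31.3% of all genes were lower in level in both R499 tumors than in both B16 and both B16PD1 tumors. Its share difference in R499 minus B16PD1 was -4.02 points (limma adjusted p = 0.319). Btla was detected in 3 cells. Pdcd1, Tigit, Cd226, Cd96, Tnfsf14, Lta, Cd28, and Ctla4 were listed at 0 in all 507 cells. Neither tested gene passed in any contrast in level, with 0 at an unadjusted p under 0.05 (limma), beside 4.69%, 10.5%, and 10.2% of all genes in the 3 contrasts.

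Of 28 other genes on the tumor side, not all of them ligands, 12 were tested and 0 passed in any contrast in level, with 1, 2, and 4 at an unadjusted p under 0.05 (limma), beside 4.69%, 10.5%, and 10.2% of all genes. The galectin genes Lgals1 (2154 ± 469 TPM, detected in 504 cells) and Lgals3 (735 ± 328 TPM, 452 cells) were more abundant than Lgals9, and Tnfsf9, the ligand of the costimulatory receptor 4-1BB, followed (34.3 ± 9.95 TPM, 178 cells). Lgals1 was higher in both R499 tumors than in both B16 tumors by 0.73 (standard error 0.23, limma adjusted p = 0.342), as 11.6% of all genes were higher in both. Pdcd1lg2, the second ligand of PD-1, was listed at 0 in all 507 retained cells, as were Vtcn1, Tnfsf4, Tnfsf18, Cd70, Fasl, Cd24a, Cd55, and Ido1. Medians of the tested genes of this list were 0.069, 0.12, and 0.065 in the 3 contrasts.

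Of 12 genes of adenosine handling, the pathway that Nt5e feeds, 7 were tested and 0 passed in any contrast in level, with 1, 1, and 2 at an unadjusted p under 0.05 (limma), beside the same shares of all genes. The genes that remove or carry adenosine were present, with Adk, its kinase, at 104 ± 43.8 TPM in 274 cells, Slc29a1, its transporter, at 61.5 ± 18.0 TPM in 238 cells, and Ada, its deaminase, at 4.37 ± 2.39 TPM in 45 cells. Of the enzymes that act before Nt5e, Entpd1 (CD39) was detected in 2 cells, Entpd2 in 25, and Enpp1 in 16. Of the receptor genes, Adora2b was detected in 11 cells and Adora2a in 1, and Adora1 and Adora3 were listed at 0. Entpd2 differed by -0.33 in R499 minus B16PD1 (standard error 0.092, limma adjusted p = 0.284). In B16PD1 minus B16 it differed by 0.25 (0.092, limma adjusted p = 0.989). In R499 minus B16 the groups overlapped, with a difference of -0.083. Ada was lower in both R499 tumors than in both B16 tumors by -0.38 (standard error 0.14, limma adjusted p = 0.380), as 30.1% of all genes were lower in both.

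All 16 genes listed as regulators of Cd274 or Cd47, or acting with them, were tested, and 0 passed in any contrast in level, with 1, 5, and 3 at an unadjusted p under 0.05 (limma), beside 4.69%, 10.5%, and 10.2% of all genes. This list shares genes with the interferon-γ list. Calr, the calreticulin signal that promotes phagocytosis opposite to CD47, was the most abundant (405 ± 80.8 TPM), followed by Myc (102 ± 14.0 TPM), a transcription factor. In R499 minus B16, Calr differed by -0.75 (standard error 0.27, limma adjusted p = 0.378) and Myc by -0.94 (0.36, limma adjusted p = 0.380). Calr and Myc were lower in both R499 tumors than in both B16 tumors, as were 30.1% of all genes. Cop1, a ubiquitin ligase, was higher in both R499 tumors by 0.49 (0.19, limma adjusted p = 0.380), as were 11.6% of all genes. It was also higher in both B16PD1 tumors than in both B16 tumors, by 0.62 (0.19, limma adjusted p = 0.989). In that contrast the groups did not overlap for 33.3% of all genes. R499 and B16PD1 overlapped for Cop1, with a difference of -0.13. The medians of the 16 were -0.053, -0.38, and -0.26 in the 3 contrasts, beside 0.012, -0.073, and -0.089 over all genes.

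A few immune transcripts were present in the sorted cells. At least 1 of the 15 immune markers was detected in 50 cells, from 5 to 12 per tumor, and their summed mean TPM was 200 and 19.3 in B16, 35.9 and 228 in B16PD1 tumors, and 5.98 and 6.09 in R499. Lyz2 was the most abundant of them (34.0 ± 52.0 TPM, SD, n = 6 tumors, 14 cells), with a median of 49.1 TPM in the cells that detected it and a highest cell of 9867 TPM, in B16PD1002. Tyrobp reached 6609 TPM in that tumor and 6142 TPM in B16007, so the sums of these 2 tumors rested largely on single cells. In these 50 cells Lgals9 was detected in 96%, Pvr and Cd47 in 72% each, and Cd274 and Cd276 in 14% each, against 76.6%, 57.3%, 49.2%, 17.1%, and 12.04% of the 457 others. The 50 cells had a median of 4333.5 genes detected, and the others 3434. Without them the Cd47 difference was -0.81 in R499 minus B16 and -1.10 in R499 minus B16PD1, and that of Cd274 was 0.41 and 0.55, so these differences were about as large without the cells. Of the marker lists, 7 melanocyte, 4 immune, and 2 fibroblast genes were detected often enough to be tested, and 0 passed in any contrast in level (limma), with 2, 2, and 1 melanocyte genes, 0, 0, and 1 immune genes, and no fibroblast gene at an unadjusted p under 0.05, beside 4.69%, 10.5%, and 10.2% of all genes.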

How the data were processed

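Single-cell RNA sequencing values of 602 cells from 6 tumors were used. The authors aligned reads with STAR (2-pass) and computed TPM with RSEM at default settings, and the deposited TPM include cells below the limits used here. The submitters' processing notes name the build mm10, and versions and annotation are not given in the sources used here. Columns carried a tumor number and a condition, which placed each cell in its group. Cells with more than 1000 genes detected and less than 10% mitochondrial TPM were retained, and a gene was tested if over 5 of them detected it. No 2 cells shared a well position or all values, and doublets were not called. A tumor's value was the mean over cells of log2(TPM + 1) or the percent of cells with TPM above 0, so differences understate changes of low genes. limma 3.58.1 in R 4.3.3 (lmFit, eBayes with a trend, all 6 tumors, two-sided, Benjamini-Hochberg) gave the contrasts, and Python 3.11.15 with scipy 1.17.1 the rest. The limma fit was tried on simulated tumor values with planted differences in R499 minus B16. The 2 tumors of a condition came from separate mice, and each may pool both flanks.

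Positions came from GENCODE M21, which held 25103 of the 25215 gene IDs. The 7 genes and all gene lists were chosen with earlier results of these data known. Of each list the text names the 3 most abundant genes and those at 0 in all retained cells, and a few genes that the rules name are not reported here. Sox10, Mitf, Tyr, Pmel, Ptprc, other detected immune and fibroblast markers, Cop1, and the enzymes and receptors of the adenosine list were named in addition, after their values were seen. Alternatives were pseudocounts of 0.1 and 10, log2 of the mean TPM, detection at 1 TPM, other filters on genes and cells, subtraction of each cell's mean, a term for genes detected, no trend in limma, and leaving out each tumor. Leaving out cells with an immune marker, and fewer pairs of neighboring levels, were added after the data were seen. Subclones and variant calls were not analysed here.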

Additional observations from a re-analysis of the deposited data

How the results depend on the processing

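No one of the 5 genes passed an adjusted p of 0.05 (limma) in any alternative, and of 420 member differences under alternatives 384 kept their direction and 36 reversed. Counts over all genes moved more. In level, R499 minus B16 called 7 genes, and 11 with a pseudocount of 0.1, 3 with 10, 22 with all cells, 15 with cells over 3000 genes, 13 without cells with an immune marker, 28 with each cell's mean subtracted, and 0 with log2 of the mean TPM, no gene filter, genes detected as covariate, or no trend. R499 minus B16PD1 called 8, and 13 and 3 with those pseudocounts, 16 with all cells, 22 with the mean subtracted, and 0 in the same 4 settings. With 1 tumor left out the counts were 0 to 10 and 3 to 8, and in B16PD1 minus B16, where 0 passed (528 genes at an unadjusted p under 0.05), 0 to 2, the 2 being without B16007. In share of cells the R499 contrasts called 5 each. The first gave 2 with cells over 3000 genes, 8 without immune-marker cells, 1 with the covariate, and 0 with no gene filter. The second gave 9 with detection at 1 TPM, 3 with cells over 3000 genes, 9 without immune-marker cells, 0 with the covariate, and 0 with no gene filter, and leaving out a tumor gave 0 to 2 in both. B16PD1 minus B16 gave 0 throughout with a tumor left out (573 at an unadjusted p under 0.05).

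Reversed level differences in B16PD1 minus B16 were those of Pvr, to -0.027 with a pseudocount of 10, -0.32 with log2 of the mean TPM, -0.092 with cells over 3000 genes, and -0.048 with the covariate, and of Cd274, to 0.0079 with log2 of the mean TPM. In R499 minus B16PD1 they were Cd276, to 0.0074 with a pseudocount of 10, 0.054 with log2 of the mean TPM, 0.081 with the mean subtracted, and 0.043 with the covariate, Lgals9, to 0.024 with cells over 3000 genes and 0.14 with the covariate, and Pvr, to 0.031 with the covariate. Reversed share differences in R499 minus B16 were Pvr, to 0.696 points at 1 TPM, 4.07 with cells over 3000 genes, and 5.05 with the covariate, and Lgals9, to 2.92 with the covariate. In R499 minus B16PD1 they were Pvr, to 2.02 with cells over 3000 genes and 2.68 with the covariate, and Lgals9, to 1.005 with the covariate. Leaving out 1 tumor gave level ranges of -0.43 to 0.29 (Cd274) and -1.2e-04 to 0.65 (Cd47) in B16PD1 minus B16, -0.36 to 0.76 (Lgals9) in R499 minus B16, and -0.88 to 0.24 (Lgals9) and -0.19 to 0.078 (Cd276) in R499 minus B16PD1. In share the ranges were -9.36 to 6.80 (Cd274), -1.92 to 10.7 (Lgals9), and -5.00 to 2.19 (Cd276) in B16PD1 minus B16, -7.89 to 5.49 (Lgals9) and -5.18 to 4.31 (Pvr) in R499 minus B16, and -12.3 to 1.12 (Lgals9) and -6.72 to 0.465 (Cd276) in R499 minus B16PD1. Without a change of sign, but by over 1.5 times, level differences ranged over 0.037 to 1.01 (Lgals9), 0.019 to 0.24 (Pvr), and -0.32 to -0.056 (Cd276) in B16PD1 minus B16, 0.092 to 0.82 (Cd274) and -0.52 to -0.11 (Pvr) in R499 minus B16, and 0.26 to 0.78 (Cd274) and -0.65 to -0.24 (Pvr) in R499 minus B16PD1. Share differences did so over 0.915 to 11.5 (Cd47) and 3.20 to 8.09 points (Pvr), 2.22 to 18.4 (Cd274), -17.2 to -6.64 (Cd47), and -6.09 to -2.98 (Cd276), and 7.38 to 15.8 (Cd274) and -10.8 to -1.34 (Pvr) in the same order of contrasts. Cd47 in R499 minus B16 stayed between -0.99 and -0.59 in level with 1 tumor left out.

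Of neighboring levels, a pseudocount of 10 brought 4 differences past 0.05 (exact sign-flip permutation test, adjusted p = 0.0469), namely Lgals9 over Pvr (1.51), Pvr over Cd47 (0.31), Cd47 over Cd274 (0.90), and Cd276 over Tnfrsf14 (0.21), the last no test because Tnfrsf14 was at 0 in 5 of 6 tumors. The adjusted p of the first 3 in this family also counts that pair. Log2 of the mean TPM brought Lgals9 over Pvr (1.75) and Pvr over Cd47 (0.55) past 0.05 in the same test, and with it Cd274 minus Cd276 reversed (-0.12). Over the 4 pairs without Tnfrsf14 and Nt5e, chosen after the data were seen, the first 3 with the pseudocount of 10, and both of these and Cd47 over Cd276 (2.40, its neighbor on that scale) with log2 of the mean TPM, had an adjusted p of 0.0417 (exact sign-flip permutation test). With cells over 3000 genes, 89.5% had 2 or more of the 7 genes. The cause was not tested for any of these, and for the gene filter and left-out tumors the number of genes or samples differs. No paired analysis was possible because the columns carry no replicate number. TPM holds no read counts, so a 0 may be a transcript missed at this depth, and 2 tumors per condition limit every contrast.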

Other observations

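Among the 95 cells that did not pass the limits on genes detected and mitochondrial share, Cd47 was detected in 57.9%, above its 51.5% in the retained cells, while Lgals9 (63.2%), Pvr (38.9%), Cd274 (9.47%), and Cd276 (9.47%) were detected in smaller shares than there. With these cells included, the Cd47 level difference was -0.48 in R499 minus B16 and -0.82 in R499 minus B16PD1. R499015 and R499016 kept 80.2% and 75% of their cells, and the other tumors 86% to 90.1%.

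Qpctl, the glutaminyl cyclase that modifies CD47 at the site SIRPα recognizes, was singled out after its values were seen. It was detected in 7.41% and 6.67% of cells in R499, 14.3% and 12.8% in B16, and 16.3% and 13.6% in B16PD1, with level differences of -0.34 in R499 minus B16 and -0.33 in R499 minus B16PD1 (limma adjusted p = 0.383 and 0.431). In level it was lower in both R499 tumors than in both B16 and both B16PD1 tumors, as were 30.1% and 31.3% of all genes in these contrasts.

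Raet1e, a ligand of the activating receptor NKG2D, also named after its values were seen, was detected in 13.6% and 13.3% of cells in R499 and in 4.40% to 9.30% of cells in the 4 B16 and B16PD1 tumors. Its share differences did not pass (limma adjusted p = 0.266 against B16 and 0.340 against B16PD1), nor did those in level (limma adjusted p = 0.337 and 0.403). In level 11.6% and 10.2% of all genes were higher in both R499 tumors in these contrasts, as Raet1e was.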
